A study of Mus musculus with 6 samples.

Results

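The genes of the myelin sheath were followed in the whole brain of male FVB mice at postnatal day 6 (P6), on 3 arrays of hSRY-ON and 3 of hSRY-OFF mice. The members were all probes of Mobp, Mbp, Mog, Mag, Cnp, Mal, Ugt8a and Cldn11 on Illumina MouseRef-8 bead arrays, on which the brightness of a probe's beads reads the amount of its transcript. They made up 15 of 25697 probes and 8 of 18138 gene symbols. No probe was listed under Cnp1, which the RefSeq table gives as an older name of Cnp. Mal was read as the gene of that current symbol, although the RefSeq table also lists the name as a synonym of Tirap and Mrtfa. By the paper's naming, both groups carried the Signalox-hSRY transgene, driven by the CAG promoter, which is active in most cell types. In this line it was integrated as a single copy at the H11 locus of chromosome 11. Whether the hSRY-OFF mice carried it on 1 or both chromosomes is not given. In hSRY-OFF mice the transgene was unrecombined, so that the promoter drove the red fluorescent protein DsRed2. In hSRY-ON mice, Cre from oocytes of Ddx4-Cre mothers had removed DsRed2 in the embryo, so that FLAG-tagged human SRY and EGFP were driven in its place. The hSRY-ON mice chosen for the arrays carried no Ddx4-Cre transgene themselves. The Signalox-hSRY transgene came from 1 line, and the hSRY-ON mice from crosses of its males with females of the Ddx4-Cre line. A difference between groups therefore includes the exchange of fluorescent proteins and the Cre-carrying mothers along with human SRY, and these cannot be told apart. The paper also reports little suckling and slowed growth in hSRY-ON pups, the latter visible by P6. These go with the group as well, and their part was not tested.

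Myelin is the multilayered membrane that oligodendrocytes wrap around axons in the central nervous system. In the rodent brain it begins to form in the first days after birth, in the hindbrain before the forebrain, and its genes switch on in sequence as precursors stop dividing and mature. Cnp and Ugt8a are already on in cells that have not begun to wrap. Mbp, Mag and Cldn11 follow, and Mog, Mobp and Mal come on with the compact sheath. These 3 classes are called early, middle and late below. They were set from textbook knowledge, and not by the values.

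Normalized signals are on the log2 scale, and a log2 fold change is hSRY-ON minus hSRY-OFF. A difference is called where limma gave a Benjamini-Hochberg adjusted p under 0.05 over all tested probes, which were those above background on at least 3 of the 6 arrays. The members passed this filter with 14 of 15 probes. Between 13816 and 14377 probes were detected per array, and the median deposited intensity was 200.2 to 219.8. In whole brain, fewer cells of a type and less RNA per cell cannot be told apart.

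Myelin transcripts were less abundant in hSRY-ON brains for 3 called probes, 2 of Mobp and that of Ugt8a, and none was called in the other direction. Of the 14 tested probes, 13 had a log2 fold change below 0, against 48.9% of all tested probes, and their median was -0.57, against 0.0048 over all tested probes. The 3 called probes were 21.4% of the members, where 1.32% of all tested probes were called lower and 2.17% were called in either direction. For 9 member probes (64.3%) all 3 hSRY-ON values lay below all 3 hSRY-OFF values, as they did for 14.2% of all tested probes. The same 9 probes had an unadjusted p under 0.05, against 10.9% of all tested probes that were lower at that level. The members had been listed with earlier results of these arrays known, so that these shares describe them and are not independent evidence.

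**Figure D1:**
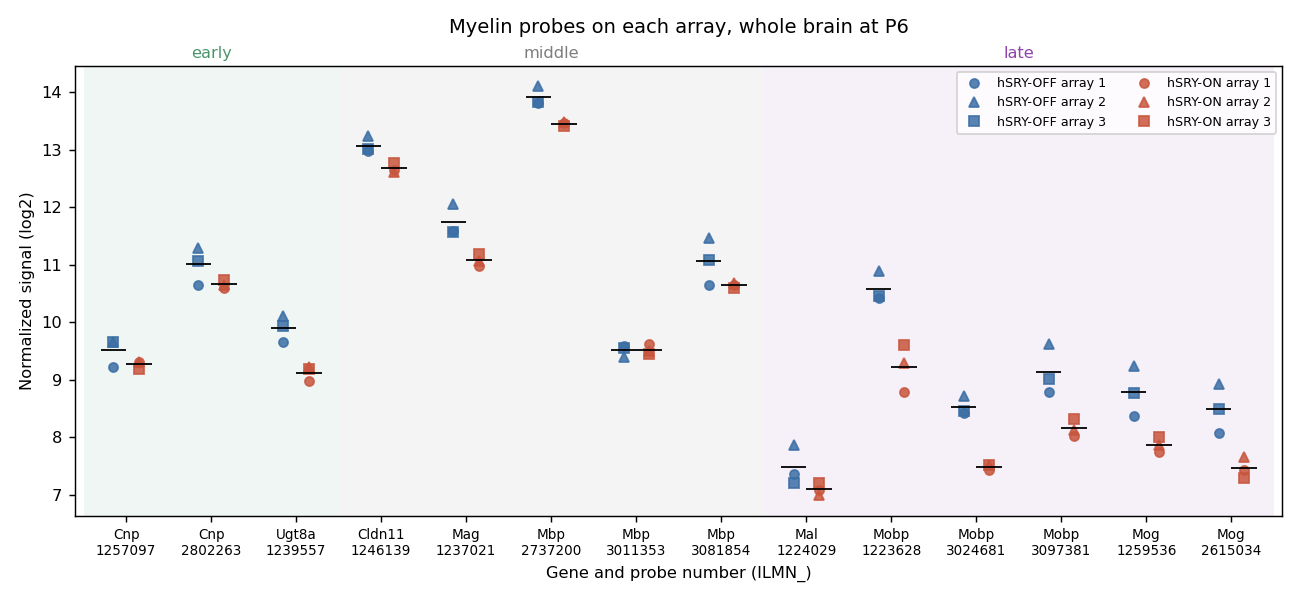
Normalized log2 signal (vertical axis) of each of the 14 tested myelin probes (horizontal axis) on the 3 hSRY-OFF arrays (blue) and the 3 hSRY-ON arrays (red), with black lines at the group means and shading for the early, middle and late classes (levels of different probes cannot be compared). In 9 probes the red points lie wholly below the blue ones, and hSRY-OFF array 2 (blue triangle) is the highest hSRY-OFF value in 13 of 14 probes.

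Among the late genes, Mobp, which encodes a small basic protein of compact myelin, had the lowest log2 fold change of a member, on 1 of its 3 probes. This probe, ILMN_1223628, read 10.42, 10.88 and 10.46 in the brains of hSRY-OFF mice (arrays 1 to 3, in this order throughout) against 8.79, 9.30 and 9.60 in those of hSRY-ON mice. The 3 hSRY-ON arrays were all below the hSRY-OFF arrays but spread over a range of their own, with array 1 lowest. The transcript fell to 0.391 of its level in hSRY-OFF (95% interval 0.273 to 0.560, log2 fold change -1.36, SE 0.22, limma adjusted p 0.0348; 0.0541 with no filter on dim probes), and 5 of the 14215 tested probes had a lower log2 fold change. In the deposited intensities, before any correction, the same probe read 1714, 2005 and 1495 in hSRY-OFF and 606, 749 and 889 in hSRY-ON.

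The second Mobp probe, ILMN_3024681, had the closest replicates of the late class. It read 8.42, 8.72 and 8.46 in hSRY-OFF against 7.44, 7.51 and 7.51 in hSRY-ON, and fell by 1.05 on the log2 scale (SE 0.10, adjusted p 0.0225), or by 0.66 on intensities without background correction. The third probe, ILMN_3097381, read 8.79, 9.63 and 9.0 in hSRY-OFF and 8.03, 8.12 and 8.33 in hSRY-ON. The groups did not overlap, but the log2 fold change of -0.98 (SE 0.21) had an adjusted p of 0.0637 and was not called. All 3 Mobp probes thus lay on the same side.

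Mog, which encodes an immunoglobulin-like protein of the outermost myelin layer, had values close to those of Mobp without passing the threshold. Probe ILMN_2615034 read 8.07, 8.93 and 8.49 in hSRY-OFF and 7.44, 7.65 and 7.30 in hSRY-ON, which gave -1.03 as log2 fold change (SE 0.21, adjusted p 0.0580). Probe ILMN_1259536 read 8.37, 9.23 and 8.78 in hSRY-OFF and 7.75, 7.86 and 8.01 in hSRY-ON, which gave -0.92 (SE 0.21, adjusted p 0.0702). Over the alternatives run, the first probe was called in 5 of 15 fits and the second in 4 of 16. Neither was called when an array was left out (limma, lowest adjusted p 0.0854). In both probes the groups did not overlap, and the hSRY-OFF arrays were farther apart from each other than the hSRY-ON arrays were.

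Mal, which encodes a proteolipid of myelin and of the apical membrane of epithelia, was the exception among the late genes. Its tested probe ILMN_1224029 read 7.36, 7.86 and 7.21 in hSRY-OFF and 7.08, 6.99 and 7.21 in hSRY-ON. The groups touched at the lowest hSRY-OFF and the highest hSRY-ON value, and the log2 difference came to -0.38 (SE 0.17, adjusted p 0.259). It was -0.19 without hSRY-OFF array 2 and -0.20 without background correction. Its other probe, ILMN_1248947, was the single member left out by the filter. It was detected on 2 of 3 hSRY-OFF arrays and 0 of 3 hSRY-ON arrays, at deposited intensities of 215, 197 and 179 in hSRY-OFF and 185, 177 and 161 in hSRY-ON, which is too near background for a fold change.

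The promoters of the members were read for the letters AACAAT and ACAAAG, cores of the sites that SRY and the related SOX factors are known to bind, since the transgene encodes such a factor. The search covered the 250 bases before each start on both strands, and neither set of letters contains the other. RefSeq promoter windows (GRCm38.p6) were read for 7 of the 8 members, in 9 windows, 3 of them for Mag. Mbp was left out of this search, so nothing is said here of its promoter. The 3 late genes are shown because they include the strongest called fall (Mobp) and a late gene that was not called (Mal). Each is given on its gene's strand with matches in capitals, at chr9:120149492-120149741 (+ strand) for Mobp, chr17:37023399-37023648 (- strand) for Mog and chr2:127656696-127656945 (- strand) for Mal.
Mobp: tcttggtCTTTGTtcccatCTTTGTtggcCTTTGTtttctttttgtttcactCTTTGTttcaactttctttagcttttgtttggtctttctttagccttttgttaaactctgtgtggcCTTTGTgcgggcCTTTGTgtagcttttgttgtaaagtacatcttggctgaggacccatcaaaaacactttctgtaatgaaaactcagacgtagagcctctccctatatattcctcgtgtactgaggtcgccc
Mog: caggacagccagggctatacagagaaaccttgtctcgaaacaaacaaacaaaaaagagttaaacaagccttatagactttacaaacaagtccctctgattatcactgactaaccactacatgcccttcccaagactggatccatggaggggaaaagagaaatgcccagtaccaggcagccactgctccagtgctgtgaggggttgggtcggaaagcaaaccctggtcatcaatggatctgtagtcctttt
Mal: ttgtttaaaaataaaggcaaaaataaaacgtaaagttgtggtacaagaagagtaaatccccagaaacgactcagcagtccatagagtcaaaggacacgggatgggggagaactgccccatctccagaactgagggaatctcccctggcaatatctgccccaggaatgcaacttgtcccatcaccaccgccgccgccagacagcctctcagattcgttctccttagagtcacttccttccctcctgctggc

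The Mobp window held CTTTGT, which is ACAAAG on the other strand, 6 times, beginning 243, 231, 221, 198, 132 and 120 bases before the start. ACAAAG was found in 16.5% of all 32851 windows and at least 2 times in 1.74% of them. Mobp was the single window with 6 matches or more, a limit picked after its count was seen. The Mog and Mal windows held neither set of letters, and nor did those of Ugt8a and Cldn11. The Cnp window held ACAAAG once, 167 bases before the start, and 2 overlapping Mag windows shared 1 match, 126 or 67 bases before their starts. AACAAT was found in 9.42% of all windows and in 0 of the 9 member windows. A match in letters is a description and shows no binding, and Mog, with values near those of Mobp, had none in this window.

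Among the early genes, Ugt8a, the enzyme that makes galactosylceramide, the main glycolipid of myelin, fell while Cnp was not called. Ugt8a (ILMN_1239557) read 9.66, 10.12 and 9.94 in hSRY-OFF and 8.97, 9.22 and 9.18 in hSRY-ON. The groups were separated by a gap, and the transcript fell to 0.582 of its level in hSRY-OFF (95% interval 0.468 to 0.725, log2 fold change -0.78, SE 0.13, adjusted p 0.0396). The call was lost when any 1 of the 6 arrays was left out (adjusted p 0.0562 to 0.119, log2 fold change -0.90 to -0.67) and with no filter on dim probes (adjusted p 0.0593).

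Cnp encodes a phosphodiesterase of the cytoplasmic channels of myelin and lies on chromosome 11, which also carries the transgene. Probe ILMN_2802263 read 10.65, 11.29 and 11.07 in hSRY-OFF and 10.60, 10.65 and 10.73 in hSRY-ON, and probe ILMN_1257097 read 9.23, 9.66 and 9.65 in hSRY-OFF and 9.31, 9.31 and 9.19 in hSRY-ON. In both probes hSRY-OFF array 1 lay among the hSRY-ON values, so that the groups overlapped. Their log2 fold changes were -0.35 (SE 0.16, adjusted p 0.271, 95% interval of the fold 0.605 to 1.02) and -0.24 (SE 0.13, adjusted p 0.338, 95% interval 0.683 to 1.05). The first was -0.52 without hSRY-OFF array 1 and -0.20 without hSRY-OFF array 2, and the second was -0.38 without hSRY-OFF array 1.

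Of the middle genes, none was called, although the groups did not overlap in 3 of their 5 probes. Mag, an adhesion protein of the innermost myelin layer that faces the axon, read 11.58, 12.05 and 11.57 in hSRY-OFF and 10.98, 11.06 and 11.19 in hSRY-ON (a log2 difference of -0.66, SE 0.15, adjusted p 0.0672). Cldn11, the claudin of the tight junctions within the sheath, read 12.97, 13.23 and 13.0 in hSRY-OFF and 12.65, 12.61 and 12.77 in hSRY-ON (a log2 difference of -0.39, SE 0.10, adjusted p 0.0908). For both genes each hSRY-ON array was below each hSRY-OFF array.

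Mbp encodes the basic proteins that hold the cytoplasmic faces of compact myelin together, and its 3 probes did not behave alike. Probe ILMN_2737200 read 13.82, 14.10 and 13.83 in hSRY-OFF and 13.46, 13.47 and 13.41 in hSRY-ON, so that the groups did not overlap, with -0.47 as log2 fold change (SE 0.10, adjusted p 0.0601). Probe ILMN_3081854 read 10.64, 11.47 and 11.08 in hSRY-OFF and 10.64, 10.68 and 10.60 in hSRY-ON, where 2 hSRY-ON arrays were above hSRY-OFF array 1, and it differed by -0.42 on the log2 scale (SE 0.19, adjusted p 0.270), with -0.63 when hSRY-OFF array 1 was left out and -0.22 when hSRY-OFF array 2 was. Probe ILMN_3011353 read 9.59, 9.39 and 9.55 in hSRY-OFF and 9.62, 9.50 and 9.45 in hSRY-ON. The log2 difference of 0.012 for this probe (SE 0.09, adjusted p 0.960, 95% interval of the fold 0.868 to 1.17) was the single one above 0, and its sign turned with median scaling and without 1 array of either group. The gene also gives rise to golli transcripts, which begin upstream and are found outside oligodendrocytes as well. Which transcripts each probe reads was not analysed here.

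**Figure D2:**
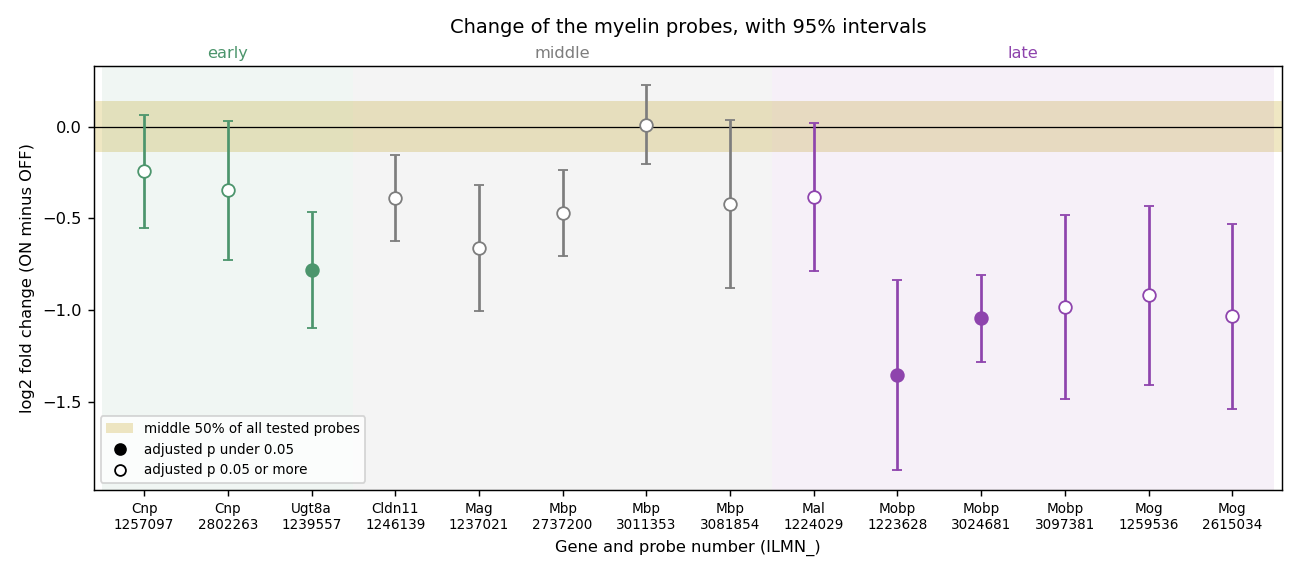
Log2 fold change of hSRY-ON minus hSRY-OFF (vertical axis) for the 14 tested myelin probes (horizontal axis), with 95% intervals from limma, filled points for adjusted p under 0.05, colours for the early, middle and late classes and a band for the middle 50% of all tested probes (-0.14 to 0.14). The Mobp and Mog probes lie between -1.36 and -0.92, and the Mbp probe ILMN_3011353 lies at 0.012.

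Late genes were then set against early genes. The median log2 fold change was -1.01 over the 6 late probes, -0.35 over the 3 early probes and -0.42 over the 5 middle probes. Relative to the hSRY-OFF mean, the late probes averaged -1.08, -0.93 and -0.85 in the hSRY-ON brains, the early probes -0.51, -0.42 and -0.44 and the middle probes -0.39, -0.39 and -0.38. The late mean was thus the lowest of the 3 classes on each hSRY-ON array, and the early and middle means were close to each other.

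The late mean minus the early mean was 0.029, 0.16 and -0.18 for the hSRY-OFF brains, in array order, against -0.57, -0.52 and -0.41 for the hSRY-ON brains. The difference between the groups was -0.50, larger than the SD of 0.17 among hSRY-OFF and 0.084 among hSRY-ON arrays (n = 3 each). No p is given, because a few probes of listed genes are not replicates of a class. The classes were not uniform. In the early class Ugt8a was called at -0.78 while the Cnp probes stood at -0.35 and -0.24, and in the late class Mal, at -0.38, lay near the Cnp probes and far from Mobp and Mog. It also depended on the background correction, with a late minus early difference of -0.28 on uncorrected intensities, and on the number of probes per gene, with -0.32 when 1 probe was used for each gene.

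**Figure D3:**
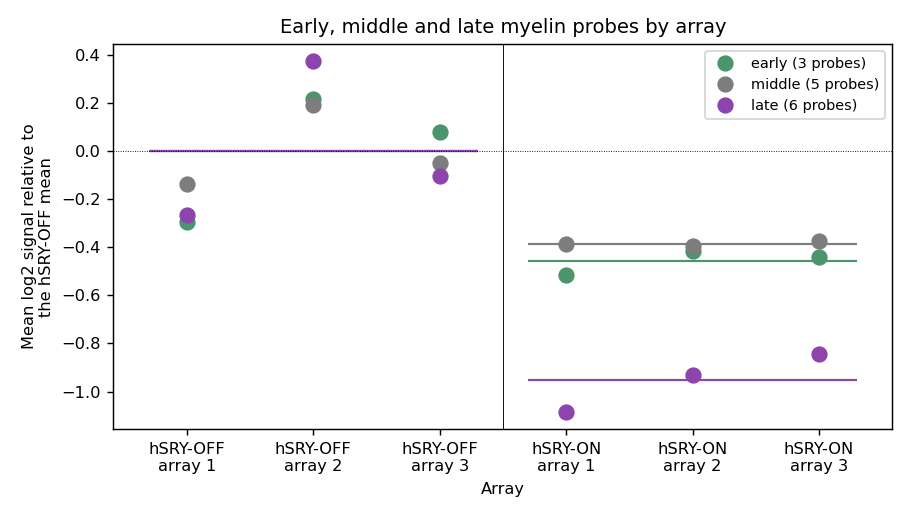
Mean log2 signal relative to the hSRY-OFF mean (vertical axis) on each of the 6 arrays (horizontal axis) for the early (3 probes, green), middle (5 probes, grey) and late (6 probes, purple) myelin probes, with lines at the group means. On the hSRY-ON arrays the late probes average -1.08 to -0.85, below the early (-0.51 to -0.42) and middle ones (-0.39 to -0.38), and on hSRY-OFF array 2 all 3 classes lie above 0.

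In most member probes the hSRY-OFF brains differed among themselves more than the hSRY-ON brains did. The probes were read from the same brains and are not separate observations of this spread. The SD was larger in hSRY-OFF for 13 of 14 member probes (92.9%), against 40.9% of all tested probes, and the exception was the Mobp probe ILMN_1223628. Array 2 was the highest of the hSRY-OFF arrays for 13 of 14 member probes, against 32.4% of all tested probes, and the exception was the Mbp probe ILMN_3011353. The part of this array in the results was measured by leaving it out. The median over the member probes was then -0.44 in place of -0.57, and 9 of 14 probes still had an unadjusted p under 0.05, but 0 were called (limma, 1 called probe in all). The late minus early difference was -0.42 without it.

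The number of calls, among the members as over all probes, depended on single arrays. Leaving out hSRY-OFF array 1, 2 or 3 or hSRY-ON array 1 or 2 left 0 called member probes in limma, while 12, 9, 10, 9 and 9 of them had an unadjusted p under 0.05. Over all tested probes these fits made 0, 1, 0, 1 and 0 calls, so that the loss was not particular to the members. Leaving out hSRY-ON array 3 left the 2 called Mobp probes, among 417 calls over all probes. When limma's variance prior was allowed to vary with mean signal and made robust, 9 member probes were called, among 1447 calls over all probes.

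Other genes of the oligodendrocyte lineage were read from lists of 55 genes, of which 36 had a tested probe, 48 probes in all. In these lists 4 genes fell and 0 rose, which were 8.33% of the probes, against the 1.32% of all tested probes called lower. Their median log2 fold change was -0.18, with 20 probes lower at an unadjusted p under 0.05 and 3 higher.

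For sheath, node and junction proteins 8 probes were tested, of which 1 was called lower and 5 were below 0, and the median of the list was -0.19. Among myelin lipid enzymes, Fa2h, which hydroxylates the fatty acids of the galactolipids built by Ugt8a, fell by 0.96 (SE 0.12, adjusted p 0.0263), and it was the single call among 7 probes. Gal3st1, which adds sulfate to those lipids, differed by -0.13 on the log2 scale (SE 0.08, adjusted p 0.423). Within this pathway the hydroxylase and the galactosyltransferase were thus called, and the sulfotransferase was not.

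Among other genes of maturing oligodendrocytes, Evi2a, a membrane protein gene, fell by 0.66 (ILMN_1251669, SE 0.10, adjusted p 0.0321), 1 of 13 probes, and its second probe had -0.61 (adjusted p 0.10). Among the regulators, Gpr17, a receptor that marks the step between precursor and myelinating cell, fell by 0.73 (SE 0.10, adjusted p 0.0263), 1 of 12 probes. The regulators had 7 probes below 0 and 5 above. Olig1 (-0.27, adjusted p 0.160), Olig2 (-0.31, adjusted p 0.152) and Nkx2-2 (-0.36 and -0.40, adjusted p 0.120 and 0.172), transcription factors of the lineage, had log2 fold changes below 0. Tcf7l2 (0.60 and 0.28, adjusted p 0.0595 and 0.169) and Id2 (0.34 and 0.20, adjusted p 0.106 and 0.622) had log2 fold changes above 0, and none of these 5 genes was called. The Tcf7l2 probe at 0.60 was detected on 0 of 3 hSRY-OFF arrays and 3 of 3 hSRY-ON arrays, and so was tested only because of the group in which it was higher.

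Precursor genes had no call among 8 probes of 4 genes in limma, with 3 probes lower and 0 higher at an unadjusted p under 0.05. All 3 were probes of Matn4, an extracellular matrix gene, with log2 fold changes of -0.64, -0.57 and -0.53 (adjusted p 0.0636, 0.0618 and 0.0891). Pdgfra, the receptor that defines oligodendrocyte precursors, read 11.08 ± 0.09 in hSRY-ON and 10.89 ± 0.07 in hSRY-OFF (SD, n = 3 each, log2 fold change 0.19, SE 0.08, adjusted p 0.254). Whether precursor and sheath genes differed in their change was not tested.

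**Figure D4:**
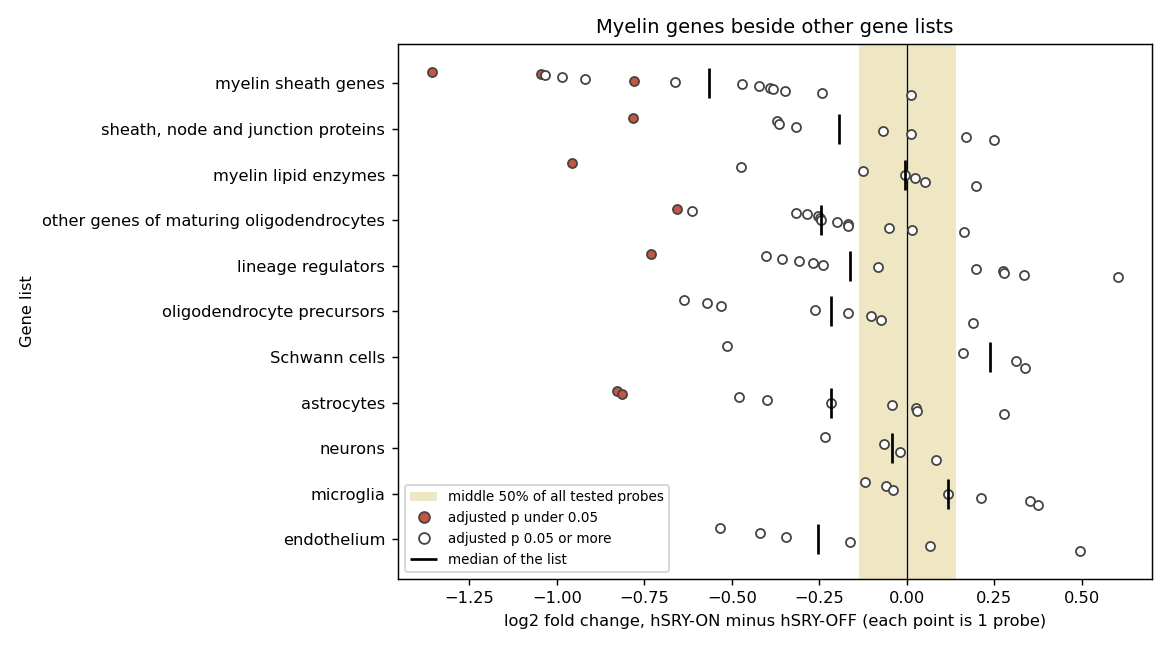
Log2 fold change of hSRY-ON minus hSRY-OFF (horizontal axis) for each tested probe of the myelin sheath genes and of 10 other gene lists (vertical axis), with filled points for adjusted p under 0.05, black lines at the list medians and a band for the middle 50% of all tested probes. The myelin sheath genes have a median of -0.57, the precursor list one of -0.22 and the neuron list one of -0.043.

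The brain was read with markers of other cells beside the members. Each list is given by its calls and by the range of its summed normalized signal, which follows the brightest probes (Stmn2 for neurons, Cldn5 for endothelium, Slc1a3, Gja1 and Aldoc for astrocytes, Mbp and Cldn11 for myelin) and does not speak for the dimmer genes. Neuron markers had 0 of 4 probes called in limma (0 at an unadjusted p under 0.05), with a sum of 38238 to 42306 in hSRY-OFF and 39961 to 42765 in hSRY-ON. Microglia markers had 0 of 7 called (0 lower and 1 higher at an unadjusted p under 0.05), with sums of 1693 to 1726 and 1734 to 1986. Endothelial markers had 0 of 6 called (3 lower and 1 higher at that level), and their sums of 5170 to 5695 in hSRY-OFF and 3872 to 4665 in hSRY-ON differed mainly through Cldn5. The 3 lower probes were those of Tek (-0.53, adjusted p 0.0861), Cldn5 (-0.42, adjusted p 0.126) and Cdh5 (-0.35, adjusted p 0.151), and the higher one was that of Flt1 (0.49, adjusted p 0.131). Astrocyte markers had 3 probes lower and 1 higher at an unadjusted p under 0.05. Of their 9 probes 2 were called, Gfap and Aqp4, which fell by 0.83 (adjusted p 0.0308) and 0.81 (adjusted p 0.0275) on the log2 scale. The sum of the list was 43767 to 44061 in hSRY-OFF and 42193 to 47724 in hSRY-ON. Schwann cell markers had 0 of 4 probes called (0 at an unadjusted p under 0.05), with sums of 783 to 1097 and 1020 to 1027, and the probes of Cdh19, Gfra3 and Pmp2, which mark these cells, were not detected on any array. The summed signal of the 14 myelin probes was 33806 to 43799 in hSRY-OFF and 26169 to 27145 in hSRY-ON. Whether a change in cell makeup took part in the myelin result was not tested.

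The probes most like the myelin genes were found by the Pearson correlation over the 6 arrays with the mean profile of the 14 member probes, each centred and scaled. The profile stood at 0.18, 1.29 and 0.63 for hSRY-OFF, again in array order, against -0.75, -0.70 and -0.65 for hSRY-ON. Outside the members, the 5 highest among the tested probes were Thy1 (0.995), a surface glycoprotein of neurons, A930009M04Rik (0.992), Meox1 (0.989), Sorl1 (0.988) and Smarcd2 (0.988). Their log2 fold changes ranged from -0.49 to -0.18, and none was called (lowest adjusted p 0.0716). The members' own correlations ran from 0.824 to 0.992, apart from the Mbp probe ILMN_3011353 at -0.41. Over 6 arrays, and with all probes sharing the same RNA samples and normalization, these values only describe which probes tracked the myelin genes.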

How the data were processed

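Total RNA of whole brain was hybridized to MouseRef-8 v2.0 arrays, 3 per group, grouped by the genotype in the labels. The authors deposited linear mean bead intensities that had not been normalized, each with a detection p-value, here taken as the share of negative controls at least as bright. The software behind them is not given in the sources used here. The study's methods name TCC and the submitters' processing notes limma, both without settings. The deposited intensities were converted to log2 values with limma 3.58.1 (R 4.3.3) by normexp correction (controls inferred from the detection p-values, offset 16) and quantile normalization. Quantile normalization ranks probes within an array, and the correction widens changes near background. A probe was tested where 3 or more arrays had a detection p-value under 0.05, by lmFit and eBayes (two-sided, group only, Benjamini-Hochberg over 14215 probes). Checked on simulated data, the fit gave every called change its right sign, but its share of false calls was above the nominal one. The arrays are described as biological triplicates, and their number limits the precision.

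The members and lists were chosen with earlier results of these data known. Named were all member probes, the called genes of each oligodendrocyte lineage list (otherwise the one with the largest change) and the 5 probes most like the members. Gal3st1, Olig1, Olig2, Nkx2-2, Tcf7l2, Id2, Pdgfra and the markers of other cells were named in addition, after their values were seen. Some listed genes are not reported here. The alternatives are given at the end. Figures were drawn with matplotlib 3.10.9.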

Additional observations from a re-analysis of the deposited data

How the results depend on the processing

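The direction of 13 member probes held under all alternatives run, and the direction of the Mbp probe ILMN_3011353 was not settled, with log2 fold changes of -0.0096 with median scaling, -0.048 when hSRY-OFF array 2 was left out, -0.036 when hSRY-ON array 1 was, and up to 0.055 when another array was left out. Of 218 member values under the alternatives, 170 kept their side of the threshold and direction, 21 lost a call and 24 gained one. For single probes, the fits with a robust prior, array weights, the block and 1 probe per symbol were added after seeing the data. The cause was not tested where a count moved, apart from the number of probes tested or the threshold itself.

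The 3 called member probes (of 308 calls over all probes) became 9 without background correction (of 1317), 9 when normexp was run on the signals alone at offset 50 (of 860), 8 under a detection limit of 0.01 on every array (of 705, with 11619 tested), 9 with a trend and a robust prior (of 1447), 9 at an adjusted p of 0.10 (of 999) and 1 with no filter on dim probes (of 123, with 25697 tested), so that calls over all probes moved the same way. The 4 other lineage genes, all lower, became 12 without background correction, 12 with a trend and a robust prior and 8 at an adjusted p of 0.10, of which 11, 11 and 7 were lower. Leaving out 1 array gave 0 to 2 member probes and 0 to 5 lineage genes. The late minus early difference was -0.28 without background correction, -0.32 with 1 probe per symbol and -0.59 to -0.42 when 1 array was left out. The Mog probes read -0.63 and -0.65 without background correction, against -0.92 and -1.03.

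With the replicate number as a block, 0 member probes and 0 lineage genes were called, as were 0 of all probes, with 10 member probes at an unadjusted p under 0.05. The deviations of same-numbered arrays correlated at 0.025 to 0.040, too weakly to pair them, although each array correlated best with its own number, a hint from the data and not from the design.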
